A study of Mus musculus with 6 samples.

Results

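The nuclear genes for the subunits of the 5 oxidative phosphorylation complexes were examined in monocytes sorted from mouse tumours. Members were the protein-coding genes of the deposited table whose symbols start with Nduf followed by a subunit letter and number, Sdh (A to D), Uqcr, Cyc1, Cox4 to Cox8 or Atp5, with the Ndufaf assembly factors left out. This gave 89 of 56980 genes: 39 in complex I, 4 in complex II, 9 in complex III, 19 in complex IV and 18 in complex V. The low-count filter passed 84 of them (38, 4, 9, 16 and 17) among 16010 genes tested. The choice used symbols only and no measured value.

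All 6 libraries came from CD11b+ Ly6Chi Ly6G- cells of B16F10 tumours, a transplanted mouse melanoma line that here also carried mCherry, in mice of WT genotype. Tumours of 3 libraries were treated with LNP-GFP, lipid nanoparticles for the green fluorescent protein, which served as the control. Tumours of the other 3 libraries were treated with LNP-Gsdme, nanoparticles for Gasdermin E, a pore-forming protein of lytic cell death. The series asked how the state of tumour monocytes changed after LNP-Gsdme. Age, dose, interval and the number of animals behind a library are given nowhere in the sources used. The spread behind each p-value is therefore that between these libraries and may be technical.

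Oxidative phosphorylation takes electrons from NADH at complex I and from succinate at complex II, passes them through complex III and cytochrome c, and hands them to oxygen at complex IV. Complexes I, III and IV pump protons across the inner mitochondrial membrane, and complex V, the ATP synthase, uses the returning protons to make ATP. Most subunits are encoded in the nucleus and imported, while a small set of membrane subunits of complexes I, III, IV and V is encoded on mitochondrial DNA. Macrophages and monocytes are known to shift between this route and glycolysis with their activation.

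The LNP-GFP libraries held 20233559 to 22932095 counts and the LNP-Gsdme libraries 15991826 to 18751784. All 7 monocyte markers on the list were detected, with a summed level of 9406 to 10497 CPM, counts scaled to the library total, in LNP-GFP and 7763 to 9864 CPM in LNP-Gsdme. Their members went opposite ways: Ly6c2, a gene of the Ly6C sort marker, and Fcgr1, an Fc receptor, rose, with log2 fold changes of 2.66 and 0.86, and Cd14, a lipopolysaccharide coreceptor, fell, with -0.69 (edgeR adjusted p = 0.00219, 0.0103 and 0.0140). Markers of cells that the sort should remove were present as well. The 9 fibroblast markers summed to 8783 to 9872 CPM in LNP-GFP and to 2213 to 5561 CPM in LNP-Gsdme. Most of this sum came from Col1a1, Col1a2 and Col3a1, at 3286, 2213 and 2945 CPM in LNP-GFP 1. Of the 9 markers, 6 were lower in every LNP-Gsdme library than in every control. The other 3 overlapped: Pdgfra and Pdgfrb (log2 fold changes of -0.48 and -0.36) and Thy1 (0.40). The 7 melanoma markers summed to 324 to 1752 CPM in LNP-GFP and 124 to 724 CPM in LNP-Gsdme. The 7 natural killer cell markers summed to 114 to 440 CPM in LNP-GFP and 458 to 593 CPM in LNP-Gsdme. In LNP-GFP 1 most of this sum was Gzmb and Prf1, at 268 and 101 CPM, and Ncr1 reached at most 0.936 CPM in any library. The 7 T cell markers summed to 150 to 442 CPM in LNP-GFP and 371 to 489 CPM in LNP-Gsdme, with overlap. The 7 neutrophil markers summed to 24.3 to 217 CPM and 64.1 to 186 CPM, also with overlap. Dendritic cell markers summed to 306 to 315 CPM in LNP-GFP and 153 to 222 CPM in LNP-Gsdme, and endothelial markers to 277 to 312 CPM and 209 to 260 CPM, both without overlap. No marker on these lists was at 0 in every library. LNP-GFP 3 lay close to a mixture of the other 2 control libraries, with a weight of 0.485 on LNP-GFP 1. Its squared residual was 1.99 times counting error, against 3.44 to 8.37 for the other 5 libraries described the same way. A library near the midpoint of 2 others adds little to the spread of its group. Errors, intervals and adjusted p-values that count 3 control libraries may therefore be too small. In these bulk libraries, fewer cells of a type and less RNA per cell cannot be told apart.

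Nuclear-encoded subunits differed little between the treatments. Of the 84 tested, 1 fell in LNP-Gsdme (Atp5b, the catalytic beta subunit of the ATP synthase) and 0 rose, at an adjusted p below 0.05 in edgeR's quasi-likelihood test with Benjamini-Hochberg adjustment over all genes. Of all genes tested, 5.32% fell and 6.30% rose, together 11.6%. At an unadjusted p below 0.05 there were 17 members (20.2%), against 31.5% of all genes tested. Limma-voom called 1 member higher and 1 lower, beside 6.60% and 5.58% of all genes. DESeq2 called 2 members higher and 4 lower, beside 9.64% and 9.40% of all genes. The median log2 fold change was -0.05 over the members and -0.01 over all genes tested, and 52 members had a negative and 32 a positive value.

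Member values were also tightly grouped. The log2 fold changes ran from -0.86 to 0.47, with quartiles of -0.18 and 0.05, and the median size of the change was 0.12 against 0.27 over all genes. For 61 of the 84 members (72.6%) the 95% interval of the log2 fold change lay within 0.5 of zero on both sides, against 30.9% of all genes tested. The 3 LNP-Gsdme libraries all lay above the 3 LNP-GFP libraries for 8 members (9.52%), where the share over all genes was 19.6%. They all lay below for 18 members (21.4%), where the share over all genes was 18.2%, and for the other 58 members the groups overlapped. These genes were among the well-expressed ones: 63 members (75%) reached a mean of 10 FPKM, a level scaled to the deposited gene length and the library total, against 25.4% of all genes tested. Their median standard error was 0.09, against 0.16 over all genes. The shares above were not matched for level, and narrow intervals go with high counts.

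**Figure D1:**
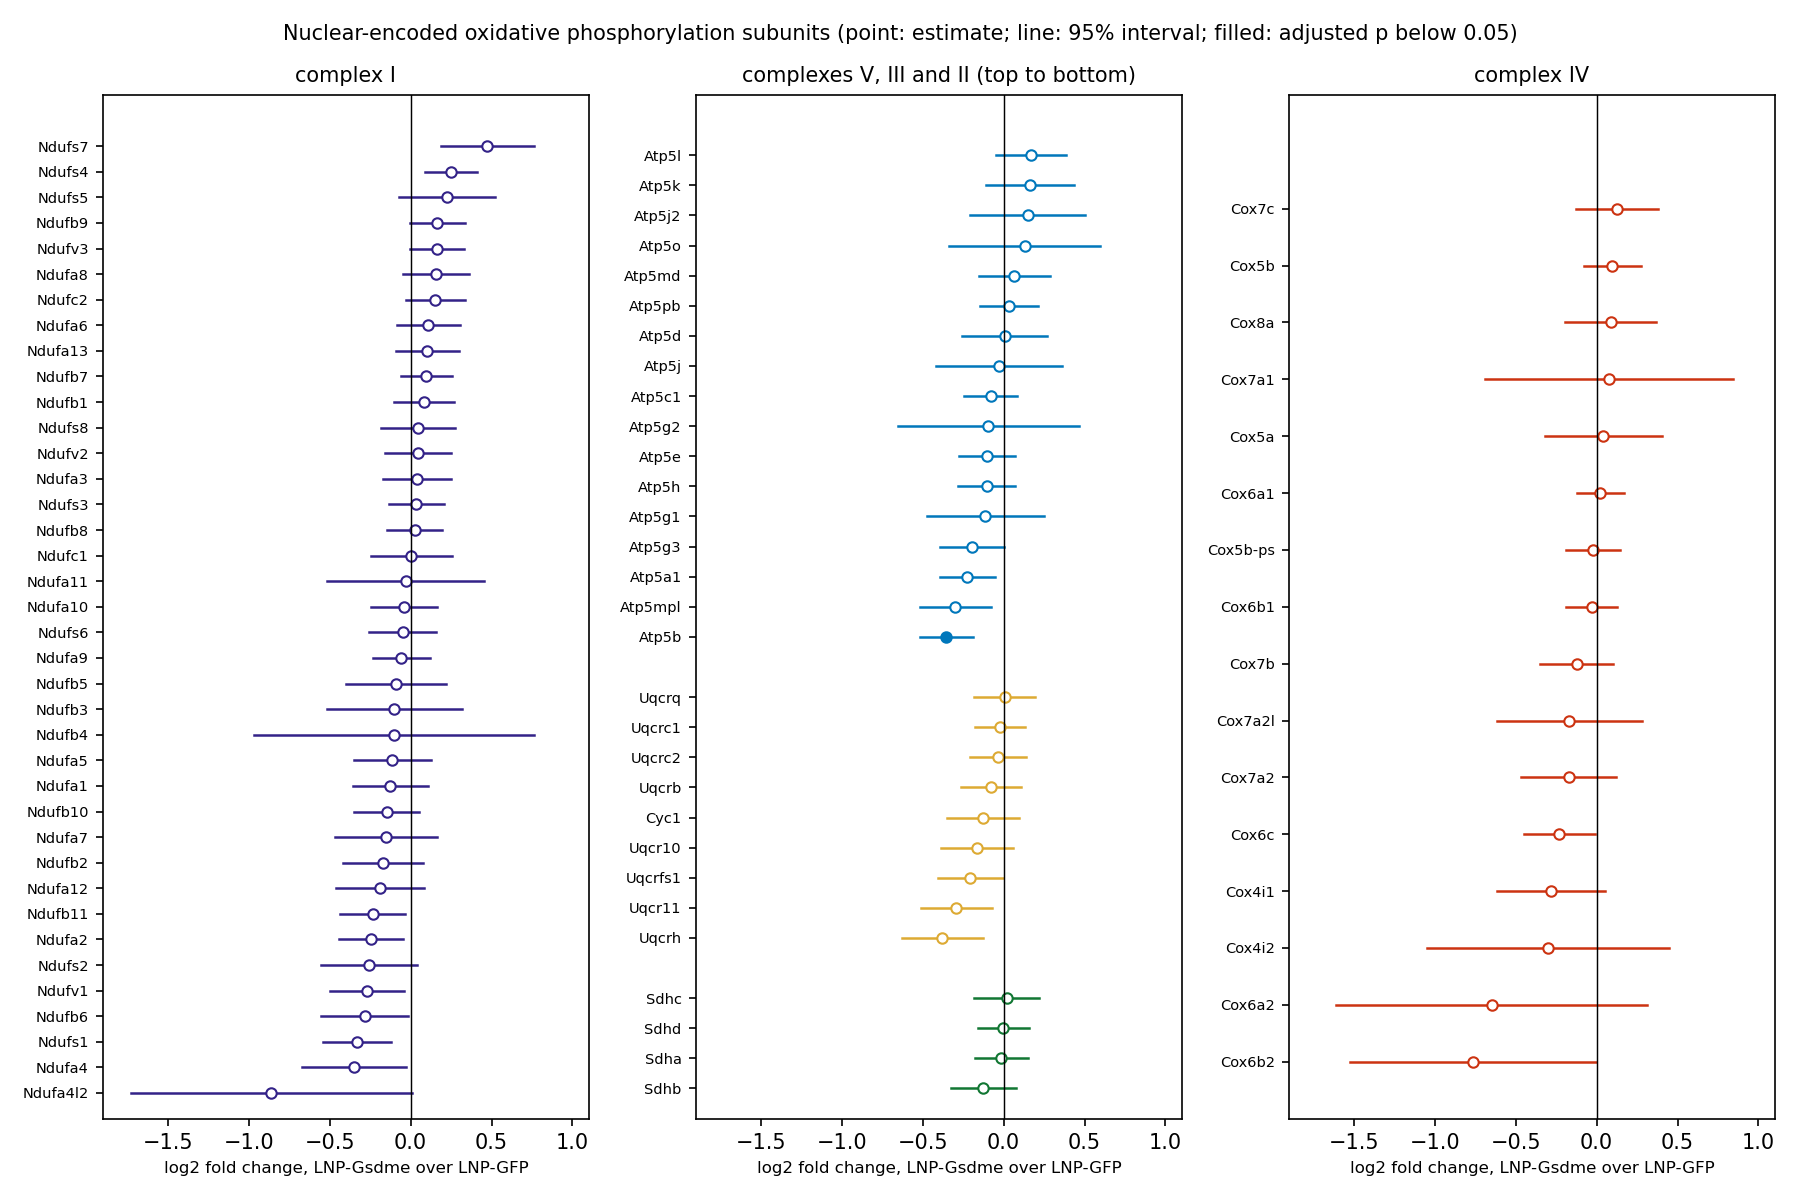
Log2 fold change of each tested member (LNP-Gsdme over LNP-GFP, x axis) by complex, with bars for the 95% interval from the quasi-likelihood fit. Most points lie close to 0, and Atp5b, at -0.35, is the member that passed the threshold.

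Complex I, NADH dehydrogenase, had no member past the threshold in 38 tested, with a median log2 fold change of -0.04. Its 7 nuclear core subunits had a median of 0.04 and the 31 accessory subunits tested -0.05. Ndufs7, an iron-sulphur core subunit next to the quinone site (chromosome 10, 80084955 to 80092628, GRCm39), had the highest value of all members. In library order 1, 2, 3, which is kept throughout, it stood at 22.3, 17.0 and 18.6 CPM in LNP-GFP and 26.5, 28.2 and 25.8 CPM in LNP-Gsdme. Every LNP-Gsdme library was above every control library, and the log2 fold change, 0.47 ± 0.12 (SE, here and below over 3 libraries a group), missed the threshold (adjusted p = 0.0530, edgeR).

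The other large core subunit values pointed down. Ndufs1, the largest subunit and the carrier of iron-sulphur clusters in the NADH-oxidising arm (chromosome 1, 63182755 to 63215992), stood at 57.7, 67.5 and 60.7 CPM in LNP-GFP and at 46.5, 51.8 and 49.6 CPM in LNP-Gsdme. The groups did not overlap, and the log2 fold change was -0.33 ± 0.09 (edgeR adjusted p = 0.0570). Ndufv1, which binds NADH and the flavin, stood at 39.3, 44.0 and 40.7 CPM and at 30.8, 36.9 and 35.1 CPM, again without overlap, for a log2 fold change of -0.27 ± 0.10 (edgeR adjusted p = 0.113). The accessory subunit Ndufs4, known for its role in the last steps of complex I assembly, was at 37.7, 35.6 and 36.5 CPM in LNP-GFP and at 43.4, 43.7 and 43.4 CPM in LNP-Gsdme, with a log2 fold change of 0.25 ± 0.07 (edgeR adjusted p = 0.0594). Over the complex, all LNP-Gsdme libraries lay above the controls for 7 members (18.4%) and below them for 8 (21.1%), shares near the 19.6% and 18.2% of all genes.

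Ndufa2 and Ndufa1, accessory subunits with the highest levels of complex I per length, had means of 90.7 and 89.3 FPKM. Their log2 fold changes were -0.25 (edgeR adjusted p = 0.101) and -0.12 (edgeR adjusted p = 0.404).

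Ndufa4, now known as a subunit of complex IV although its name places it in complex I, and its hypoxia-induced relative Ndufa4l2 both had negative values. Ndufa4 stood at 39.4, 55.3 and 48.8 CPM in LNP-GFP and at 38.4, 39.5 and 34.8 CPM in LNP-Gsdme, where LNP-Gsdme 2 exceeded LNP-GFP 1 (log2 fold change -0.35 ± 0.13; edgeR adjusted p = 0.132). Ndufa4l2 stood at 16.1, 18.1 and 17.1 CPM in LNP-GFP and at 8.15, 4.99 and 15 CPM in LNP-Gsdme. LNP-Gsdme 3 was near the controls while the other two were lower, and the log2 fold change of -0.86 ± 0.36 had an edgeR adjusted p of 0.162. Without LNP-Gsdme 3 the log2 fold change was -1.37 with an edgeR adjusted p of 0.0229. The fibroblast marker sum had the same order in the LNP-Gsdme libraries, at 2981, 2213 and 5561 CPM, and its part in the Ndufa4l2 values was not tested.

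Complex II, succinate dehydrogenase, is the one complex built entirely from nuclear genes and also works in the tricarboxylic acid cycle. None of its 4 members passed the threshold and the median was -0.01. The flavoprotein Sdha, which oxidises succinate, stood at 159, 144 and 148 CPM in LNP-GFP and at 151, 147 and 149 CPM in LNP-Gsdme, with overlapping groups and a log2 fold change of -0.01 (edgeR adjusted p = 0.909). The iron-sulphur subunit Sdhb stood at 106, 124 and 124 CPM and at 108, 106 and 110 CPM, for a log2 fold change of -0.13 (edgeR adjusted p = 0.338). The membrane anchors Sdhc and Sdhd had log2 fold changes of 0.02 and -0.00, and Sdhd had the highest level of the complex per length, at 75.2 FPKM.

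Complex III, the cytochrome bc1 complex, had a median of -0.13, with 8 of its 9 members negative and 0 past the threshold. This was the lowest median with members placed by name, but complex IV had -0.15 when Ndufa4 and Ndufa4l2 were placed there. Uqcrh, the acidic hinge subunit that meets cytochrome c (chromosome 4, 115924162 to 115932268), stood at 58.7, 68.3 and 72.6 CPM in LNP-GFP and at 55.6, 49.7 and 48.1 CPM in LNP-Gsdme. All LNP-Gsdme values were below all control values, and the log2 fold change was -0.38 ± 0.10 (edgeR adjusted p = 0.0627). Uqcrfs1, the Rieske iron-sulphur protein, stood at 110, 125 and 119 CPM and at 101, 109 and 96.1 CPM, with groups apart by a small margin and a log2 fold change of -0.21 ± 0.08 (edgeR adjusted p = 0.151). The other catalytic subunit encoded in the nucleus, Cyc1 (cytochrome c1), had overlapping groups and a log2 fold change of -0.13 (edgeR adjusted p = 0.373). Uqcrc1, a core scaffold subunit, had 152, 152 and 151 CPM in LNP-GFP against 155, 149 and 144 CPM in LNP-Gsdme, a log2 fold change of -0.02.

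Complex IV, cytochrome c oxidase, had 0 of 16 tested members past the threshold and a median of -0.08. Its nuclear subunits include pairs in which one form is made in most tissues and the other in a few, such as heart, skeletal muscle, lung or testis. The common forms carried nearly all of the expression. Cox8a and Cox6a1 had the highest levels per length of all members, at 129 and 117 FPKM, and Cox6a1 was level across libraries, at 137, 139 and 139 CPM in LNP-GFP and 139, 142 and 141 CPM in LNP-Gsdme, a log2 fold change of 0.02 ± 0.06. Cox4i1, the regulatory subunit 4, varied more, at 203, 239 and 175 CPM in LNP-GFP and at 192, 152 and 164 CPM in LNP-Gsdme (log2 fold change -0.28 ± 0.14; edgeR adjusted p = 0.219). Cox5a had a log2 fold change of 0.04 and Cox7a2 of -0.17, both with overlapping groups.

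Tissue-restricted forms were low. Cox4i2, the lung form that hypoxia raises, made up 2.29 to 4.94% of the pair's FPKM over the 6 libraries, and Cox7a1, a muscle form, 2.73 to 6.47%. The muscle form Cox6a2 made up 0.510 to 1.59% and the testis form Cox6b2 0.154 to 0.411%. Cox8b, a muscle form, had 2 counts in LNP-GFP 2 and none elsewhere and was not tested. Cox4i2 was at 2.47, 1.56 and 3.71 CPM in LNP-Gsdme, again highest in LNP-Gsdme 3, against 3.18, 2.89 and 3.55 CPM in LNP-GFP (log2 fold change -0.30 ± 0.31; edgeR adjusted p = 0.534). Log2 fold changes of -0.76 ± 0.32 for Cox6b2 and -0.65 ± 0.40 for Cox6a2 rested on about 1 CPM and had edgeR adjusted p of 0.157 and 0.309. Cox7a2l, a relative of Cox7a2 that links complexes III and IV into supercomplexes, varied widely within both groups, at 82.8, 61.0 and 84.0 CPM and at 52.6, 78.9 and 71.2 CPM.

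**Figure D2:**
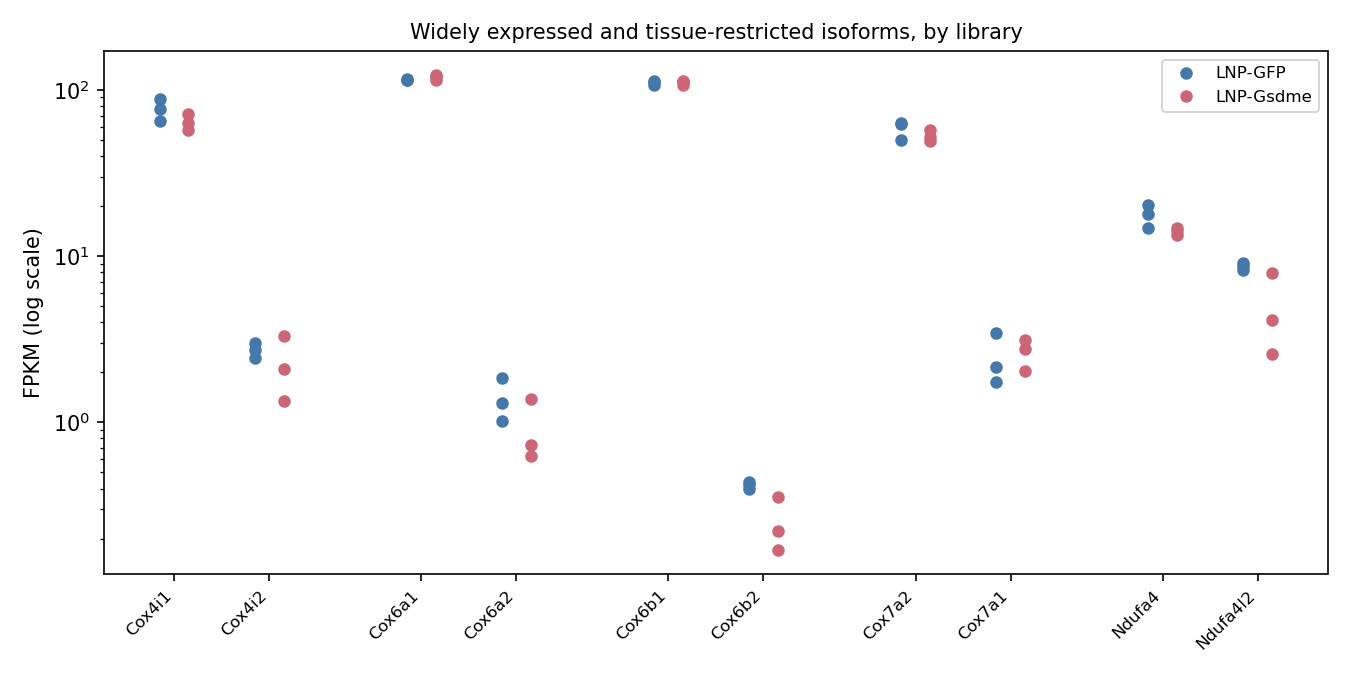
FPKM of common and tissue-restricted forms in each library (log axis), by treatment. The restricted forms lie far below their common partners, while Ndufa4l2 comes closest, at 14.8 to 37.2% of its pair.

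Complex V, the ATP synthase, held the one member that fell. Atp5b (chromosome 10, 127919142 to 127926260), whose product forms the catalytic sites of the F1 head, stood at 728, 788 and 766 CPM in LNP-GFP and at 593, 579 and 614 CPM in LNP-Gsdme. The groups lay well apart, with means of 761 ± 30.2 and 595 ± 17.5 CPM (SD, n = 3 each), and the log2 fold change was -0.35 ± 0.07 (SE; 95% interval -0.52 to -0.19; edgeR adjusted p = 0.0276). Leaving out 1 library ended the call in 4 of 6 cases, with edgeR adjusted p of 0.0632 without LNP-GFP 2, 0.136 without LNP-GFP 3, 0.109 without LNP-Gsdme 1 and 0.118 without LNP-Gsdme 2. Within LNP-GFP, Atp5b had the order of the melanoma marker sums (324, 1752 and 1054 CPM), and in LNP-Gsdme (124, 170 and 724 CPM) the third library was highest in both. The fibroblast marker sums had the order of Atp5b within both treatments. They were 8783, 9872 and 9308 CPM in LNP-GFP and 2981, 2213 and 5561 CPM in LNP-Gsdme, without overlap. LNP-GFP 3 lay near a mixture of the other 2 controls, so the order within LNP-GFP does not single out 1 cell type. The neutrophil marker sums had that order too (24.3, 217 and 117 CPM), and the natural killer cell sums its reverse (440, 114 and 273 CPM). The part of either cell type in the Atp5b difference was not tested.

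Atp5a1, the alpha subunit that alternates with beta in the F1 head, had the next highest count. It stood at 513, 573 and 538 CPM in LNP-GFP and at 462, 460 and 469 CPM in LNP-Gsdme, without overlap. The log2 fold change was -0.22 ± 0.07 (edgeR adjusted p = 0.0846). Its values also had the order of the fibroblast marker sums within both treatments. In LNP-Gsdme, however, they spread no more than counting alone gives, so their order there is not informative. LNP-GFP 3 lay near a mixture of the other controls, so the order within LNP-GFP does not single out a cell type. The part of fibroblasts in the Atp5a1 values was not tested. The 5 F1 subunits had a median of -0.10 and the 12 other tested subunits of complex V 0.00. The membrane ring of c subunits, through which protons pass, is encoded by 3 genes for the same mature protein. Atp5g3 supplied 95.6 to 96.5% of their summed FPKM, Atp5g1 2.19 to 2.83% and Atp5g2 0.984 to 1.61%, and their log2 fold changes were -0.20, -0.11 and -0.09, none past the threshold. Atp5l, the g subunit of the membrane part, had the highest value of the complex, 0.17 (edgeR adjusted p = 0.243).

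**Figure D3:**
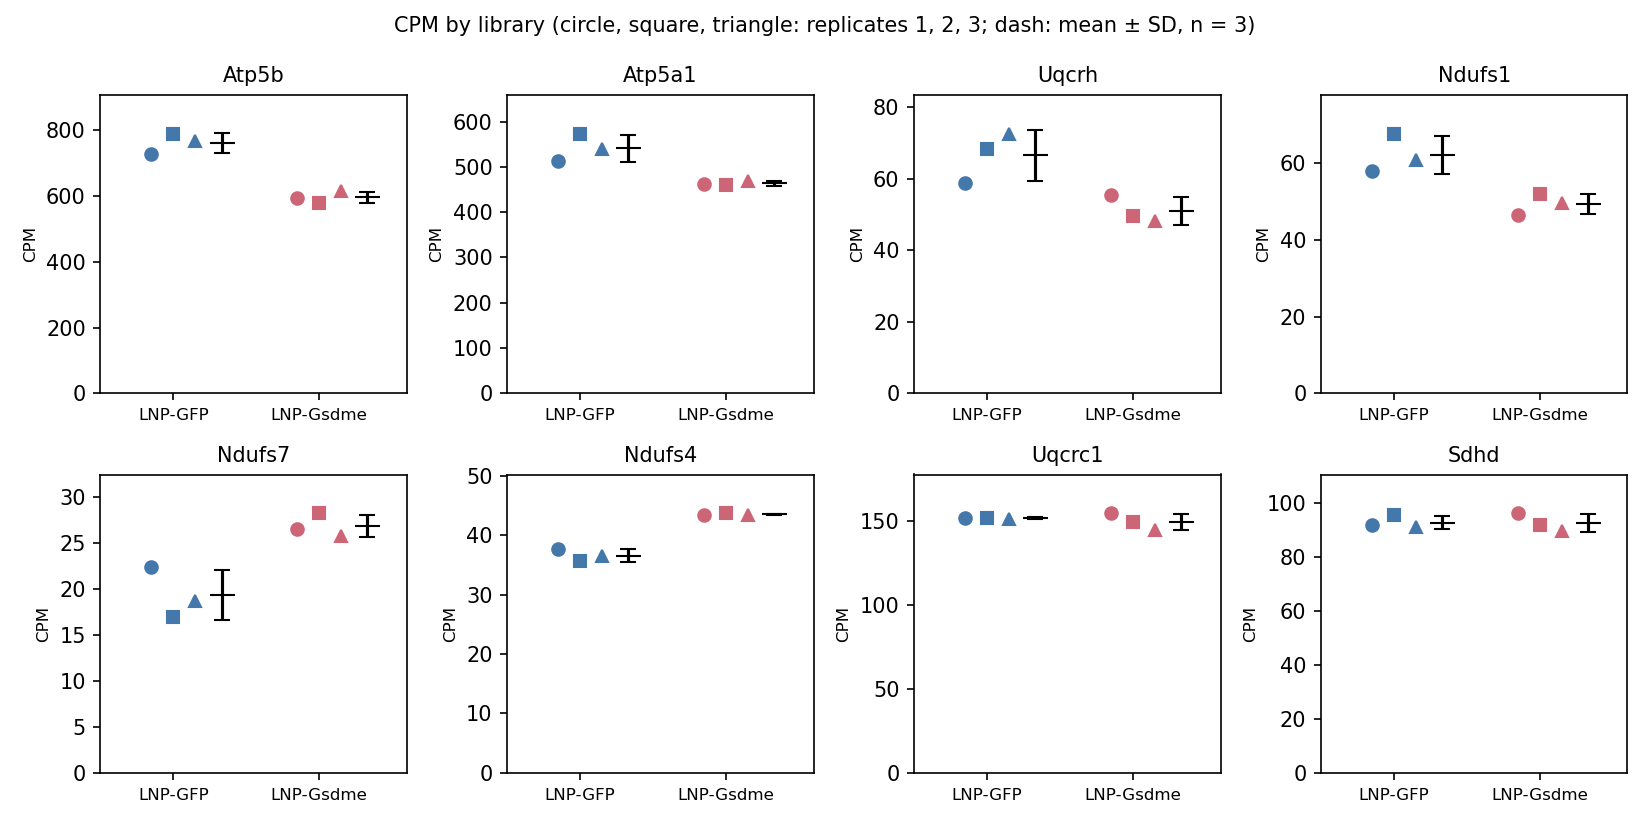
CPM of single members in each library (y axis from 0), with LNP-GFP and LNP-Gsdme on the x axis and bars for the mean and SD. Panels show Atp5b, Atp5a1, Uqcrh and Ndufs1, lower in every LNP-Gsdme library, Ndufs7 and Ndufs4, higher in every one, and Uqcrc1 and Sdhd, whose groups overlap.

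The stretches before the start sites of Atp5b, which fell, and of Ndufs7 and Uqcrh, with the highest value of all members and the smallest p of complex III, are shown so that their letters can be compared. They are the 250 bases upstream of the RefSeq gene start in GRCm38.p6, an older build than that of the files, written 5′ to 3′ on the gene's strand, at chr10:128083057-128083306 (plus), chr10:80249199-80249448 (plus) and chr4:116075071-116075320 (minus). Capitals mark CCAAT boxes, as CCAAT or its reverse ATTGG, and the ETS motif CCGGAAG, as its reverse CTTCCGG.
Atp5b: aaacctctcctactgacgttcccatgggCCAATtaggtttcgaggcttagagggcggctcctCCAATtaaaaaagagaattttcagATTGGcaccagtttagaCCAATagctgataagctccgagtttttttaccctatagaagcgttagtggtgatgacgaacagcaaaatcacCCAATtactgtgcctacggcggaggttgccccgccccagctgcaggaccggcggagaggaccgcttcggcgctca
Ndufs7: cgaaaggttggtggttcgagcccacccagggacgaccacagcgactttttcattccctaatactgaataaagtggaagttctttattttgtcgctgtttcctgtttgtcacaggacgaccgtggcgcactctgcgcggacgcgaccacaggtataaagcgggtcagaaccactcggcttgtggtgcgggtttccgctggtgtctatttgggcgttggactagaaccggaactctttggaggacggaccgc
Uqcrh: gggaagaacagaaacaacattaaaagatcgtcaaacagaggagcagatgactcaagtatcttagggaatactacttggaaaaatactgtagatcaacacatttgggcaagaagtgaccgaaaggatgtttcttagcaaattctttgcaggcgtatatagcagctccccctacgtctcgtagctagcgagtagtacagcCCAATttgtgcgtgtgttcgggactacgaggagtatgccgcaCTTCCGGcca
Atp5b held 5 CCAAT matches, Uqcrh 1 CCAAT and 1 ETS match, and Ndufs7 no match. Motifs were searched on both strands in the windows of the 69 member genes matched by symbol in the promoter table, and CCAAT was added after the Atp5b letters had been read. CCGGAAG was in 12 of the 69 (17.4%) against 7.83% of 27025 genes, and the palindromic motif of NRF1, a regulator of respiratory genes, in 4 (5.80%) against 0.877%. CCAAT was in 30 (43.5%) against 37.5%, and AAGATGGC, the YY1 motif, in 1 (1.45%) against 1.83%. Median GC content was 56.2% in the member windows and 52.4% over all promoters, and the shares were not matched for it or for expression. A match describes the letters of the window and is not a binding site.

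Summing CPM over the members gave each complex 1 value per library. Complex V stood at 2331, 2500 and 2349 CPM in LNP-GFP and at 2114, 2137 and 2132 CPM in LNP-Gsdme, a difference of -11.1% between the means. Complex III stood at 648, 700 and 684 CPM and at 624, 645 and 606 CPM (-7.73%), also without overlap. Complex II, at 453, 447 and 446 CPM against 442, 436 and 437 CPM (-2.30%), and the sum over all members, at 6151 to 6379 CPM against 5718 to 5900 CPM (-6.77%), did not overlap either. The sums of complexes I and IV overlapped, with differences of -2.51% and -4.74%. FPKM sums divide by gene length and by the library total without the scaling used for CPM. On that scale the difference was -6.29% for complex V, -8.30% for complex III and -2.89% over all members. The order of complexes V and III therefore depended on the scale. As FPKM, complexes V and III again did not overlap, but complex II and the sum over all members had overlapping groups. The sum over all members was 2694, 2709 and 2646 FPKM in LNP-GFP and 2562, 2648 and 2606 FPKM in LNP-Gsdme. Of the complex V difference in CPM, Atp5b alone made up 62.3% and Atp5a1 29.4%. The remaining complex V members summed to 1089, 1140 and 1045 CPM in LNP-GFP and 1060, 1098 and 1050 CPM in LNP-Gsdme, which overlapped. These sums are a description, since abundant members dominate them and members are not replicates.

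Subunits encoded on mitochondrial DNA were lower in LNP-Gsdme by more than their nuclear partners. Of these 13 genes, 12 fell (92.3%, against 5.32% of all genes tested). Their median log2 fold change was -0.92, against -0.05 for the nuclear members. In complex I the 7 mitochondrial subunits all fell, with values of -1.11 to -0.82, beside the nuclear median of -0.04. In complex III mt-Cytb, cytochrome b, fell by 1.04 on the log2 scale (edgeR adjusted p = 0.0104) beside a nuclear median of -0.13, and in complex IV the 3 oxidase core subunits fell with a median of -0.70 beside -0.08. In complex V mt-Atp8 fell, and mt-Atp6, the proton channel subunit, stood at 1464, 1696 and 1582 CPM in LNP-GFP and at 253, 283 and 1096 CPM in LNP-Gsdme, not past the threshold (edgeR adjusted p = 0.123). Only 3 nuclear members, Ndufa4l2, Cox6b2 and Cox6a2, had a value below -0.49, the highest of the mitochondrial genes. Without LNP-GFP 3 the number of mitochondrial genes called lower was 4, and without LNP-Gsdme 1 or LNP-Gsdme 2 it was 7 each. Of all genes tested, 0.148%, 0.278% and 0.412% were called lower in these 3 settings. The median log2 fold change of the mitochondrial genes was then -0.93, -0.86 and -0.96.

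The ratio of mitochondrial to nuclear CPM within a complex gives the same contrast by library. For complex I it was 2.87, 3.12 and 2.95 in LNP-GFP and 1.45, 1.53 and 1.76 in LNP-Gsdme. For complex III it was 2.12, 2.47 and 2.23 against 1.04, 1.19 and 1.40, and for complex IV 8.02, 10.1 and 9.29 against 6.11, 6.43 and 7.003. In each of the 4 complexes with both kinds of subunit, every LNP-Gsdme ratio was below every control ratio. Mitochondrial protein-coding genes took 1.70, 2.02 and 1.83% of counts in LNP-GFP and 1.003, 1.07 and 1.28% in LNP-Gsdme. Within each treatment this share had the order of the melanoma marker sums (324, 1752 and 1054 CPM, then 124, 170 and 724 CPM), and the fibroblast sums, 8783 to 9872 against 2213 to 5561 CPM, separated the treatments as the share did. The order within LNP-GFP does not single out 1 cell type, since LNP-GFP 3 lay near a mixture of the other 2 controls. The part of melanoma cells or fibroblasts in the mitochondrial values was not tested.

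**Figure D4:**
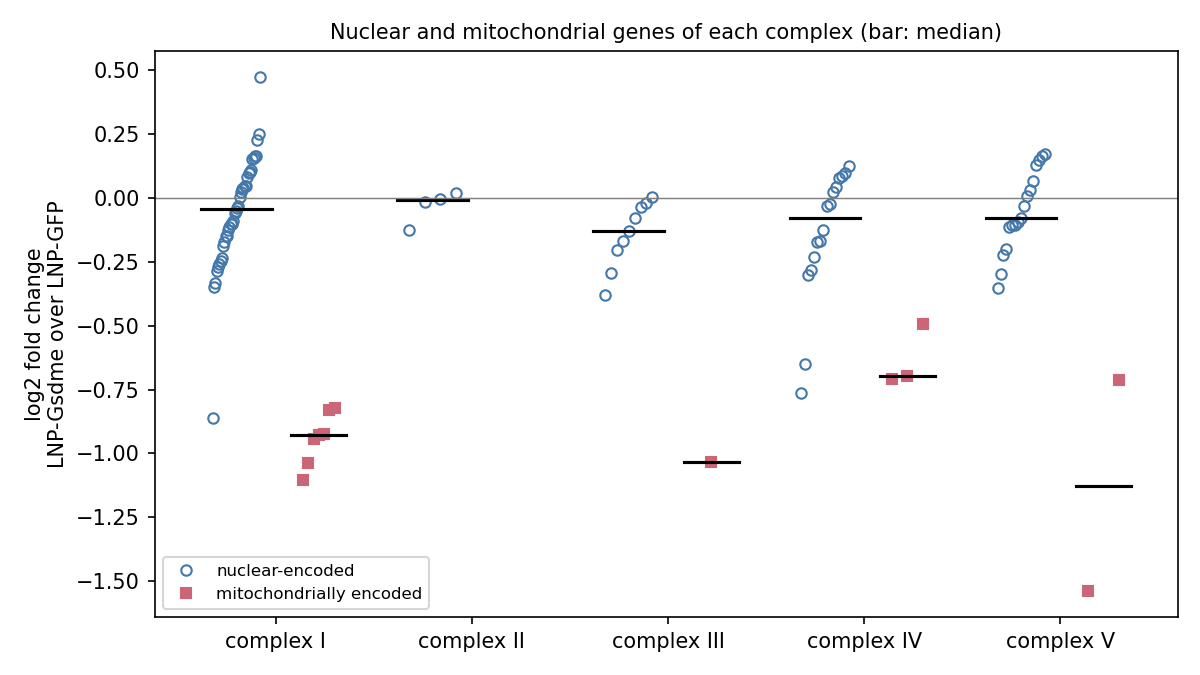
Log2 fold change of nuclear and mitochondrial subunits by complex (LNP-Gsdme over LNP-GFP), 1 point per gene. Mitochondrial subunits lie at -0.49 or below, and nuclear members, apart from Ndufa4l2, Cox6b2 and Cox6a2, lie above that.

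Genes that build or regulate the complexes were called higher about as often as genes in general. Of 45 tested assembly factors 3 rose (6.67%, against 6.30% of all genes) and 0 fell, with a median of 0.24 and 38 positive values. Every LNP-Gsdme library lay above every control for 17 of them (37.8%, against 19.6% of all genes). For 1 (2.22%, against 18.2%) every LNP-Gsdme library lay below. Surf1, an assembly factor of complex IV, stood at 11.1, 8.79 and 10.3 CPM in LNP-GFP and at 19.1, 18.3 and 18.2 CPM in LNP-Gsdme (log2 fold change 0.88 ± 0.12; edgeR adjusted p = 0.0121). Tmem126b, of complex I assembly, rose by 0.62 ± 0.14 (edgeR adjusted p = 0.0377), and Cox17, a copper chaperone for complex IV that was named after its value was seen, by 0.81 ± 0.20 (edgeR adjusted p = 0.0473). Among 16 tested regulators of mitochondrial gene expression 1 rose (6.25%): Esrra, a nuclear receptor that drives respiratory genes, at 33.7, 31.6 and 33.9 CPM against 52.8, 48.6 and 48.8 CPM (log2 fold change 0.60 ± 0.08; edgeR adjusted p = 0.0104). Gabpa, the ETS factor NRF2 alpha, had a log2 fold change of -0.30 (edgeR adjusted p = 0.0567). The coactivator Ppargc1a, named after its values were seen, stood at 2.53, 35.2 and 19.9 CPM in LNP-GFP and at 0.506, 1.37 and 11.7 CPM in LNP-Gsdme, beside melanoma marker sums of 324, 1752 and 1054 CPM and of 124, 170 and 724 CPM, whose part was not tested.

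None of 19 tested genes of the tricarboxylic acid cycle and pyruvate entry was called, with a median of -0.06 and 6 (31.6%) at an unadjusted p below 0.05, the share over all genes being 31.5%. The smallest p belonged to Dld, the shared dehydrogenase subunit (-0.26; edgeR adjusted p = 0.0634), and Idh3a, of isocitrate dehydrogenase (-0.29; 0.0785). None of 12 carriers of electrons, nucleotides or metabolites was called either, with a median of 0.05; the outer membrane channel Vdac1 had -0.33 (edgeR adjusted p = 0.0642) and the ADP/ATP carrier Slc25a4 -0.37 (0.104). Among 7 tested uncoupling and antioxidant genes none was called and the median was -0.09, with the mitochondrial superoxide dismutase Sod2 at -0.68 (edgeR adjusted p = 0.0673) and Prdx3, a mitochondrial peroxidase, at -0.23 (0.0727).

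Levels of the members were close between libraries of 1 group. Over 74 members with at least 300 counts in the mean, the median coefficient of variation was 6.28% in LNP-GFP and 5.28% in LNP-Gsdme, against 8.97% and 7.05% over 7954 genes of that depth. Cox7a2l was an exception, at 17.1% and 20.03% where counting alone gives 2.66%. Counts of some members are uncertain because near copies can share reads. Cox5b matched Cox5b-ps, itself a member by its gene type, at 99.2% of 390 aligned bases, and Ndufb4 matched Ndufb4c at 100% of 390 bases. Copies of Ndufs5, Ndufa12, Atp5pb, Cox6c and Cox7c matched at 97.0 to 99.5%.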

How the data were processed

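RNA was sequenced from 6 libraries of sorted tumour monocytes, 3 LNP-GFP and 3 LNP-Gsdme. Per the labels' protocols, column-purified total RNA was treated with DNase and made into paired-end TruSeq libraries. The authors deposited 1 table with raw counts and FPKM per gene and library, per the file headers. Per the submitters' processing notes, the genome build was GRCm39. The sources used here name no aligner, counter, strand setting or annotation, so reads shared between near copies or overlapping genes could have been counted for either. The deposited FPKM were counts divided by 1 length per gene, checked on 11356 genes (implied lengths differed by at most 0.00178%), and were used for levels only.

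Counts were fitted in R 4.3.3 with edgeR 4.0.16 (filterByExpr, TMM, robust quasi-likelihood test) on all genes, with Benjamini-Hochberg adjustment over the 16010 tested and a threshold of 0.05. The biological coefficient of variation was 0.193. CPM used TMM-scaled library totals, and a positive log2 fold change is higher in LNP-Gsdme. Medians and sums over members carry no test. The fitting was tested on simulated data. Alternatives were DESeq2 1.42.0, limma-voom (limma 3.58.1), other scalings and filters, a replicate block and each library left out; 2 concerning the membership of complex IV were chosen after seeing the data.

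The members, lists and rule for named genes were chosen with earlier results of these data known. The rule took called members, the 2 highest by FPKM and the smallest p in each complex, the extremes of fold change, a set chosen by role, and the 2 smallest p of each other list; it named 36 members. Ndufs4, Ndufa11, Cox5b, Cox5b-ps, Ndufb4, Ndufs5, Ndufa12 and Atp5pb fall outside it and were chosen after their values were seen. Of the mitochondrial list, mt-Nd3 and mt-Nd5 had the smallest p, but mt-Cytb, mt-Atp8 and mt-Atp6, outside the rule, were described instead. Ndufb11b, Cox7b2 and Cox8c had 0 counts in all libraries and, with Cox8b and a second Atp5o identifier, were not tested.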

Additional observations from a re-analysis of the deposited data

How the results depend on the processing

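With 3 libraries per group, Ndufs7 missed the threshold at a log2 fold change of 0.47, and calls depended on single libraries. Leaving out each library in turn gave 64 to 1625 genes higher and 24 to 1216 lower over the whole table (64 and 24 without LNP-GFP 3), 0 to 2 members higher and 0 to 4 lower. The medians then ran from -0.069 to 0.033 for complex I, -0.024 to 0.019 for II, -0.18 to -0.072 for III, -0.094 to -0.045 for IV, -0.12 to 0.0071 for V and -0.075 to -0.019 for all members. DESeq2 called 1543 genes higher (9.64%) and 1505 lower (9.40%), with 2 members higher (Ndufs4, Ndufs7) and 4 lower (Atp5a1, Atp5b, Ndufs1, Uqcrh). Limma-voom and the stricter filter each called 1 member higher (Ndufs7) and 1 lower (Atp5b). Of all genes, limma-voom called 6.60% higher and 5.58% lower, and the stricter filter 7.32% and 5.74%. Upper-quartile scaling called 3 members lower, beside 6.59% of all genes. Its medians were -0.090 (I), -0.053 (II), -0.12 (IV) and -0.099 (all members). Library size alone gave 0.019 (II), -0.048 (IV) and -0.026 (all members). The complex IV median was -0.13 with no filter, -0.024 with the stricter filter, -0.15 with Ndufa4 and Ndufa4l2 placed there and -0.12 without Cox5b-ps. Libraries of the same replicate number had correlations of deviations of 0.22, -0.27 and 0.03, and those of different numbers ran from -0.35 to 0.34. With 3 libraries per group, 1 of them near a mixture of 2 others, these values cannot show or exclude pairing. With replicate number as a block, 103 genes were higher (0.643%) and 52 lower (0.325%). In that fit 0 members and 6 mitochondrial genes were called, and Atp5b had an edgeR adjusted p of 0.0968. Directions near zero changed: upper-quartile scaling gave Cox5a -0.0022, Cox6a1 -0.021, Sdhc -0.027 and Uqcrq -0.040, and library size alone gave Sdha 0.013, Sdhd 0.025 and Uqcrc1 0.0056. With single libraries left out, Sdha ran from -0.036 to 0.039, Uqcrq -0.036 to 0.063, Atp5g1 -0.20 to 0.0071, Cox5a -0.070 to 0.15, Sdhc -0.011 to 0.10, Sdhd -0.027 to 0.025, Cox7a1 -0.10 to 0.41, Cox8a -0.024 to 0.16, Atp5g2 -0.23 to 0.087 and Uqcrc1 -0.043 to 0.0054. Atp5b kept a negative value throughout, -0.40 to -0.32. The causes of these shifts were not tested.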
